A study of Mus musculus with 12 samples.

Results

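The genes described here are 6 CC chemokine ligands of stromal cells, Ccl2, Ccl7, Ccl8, Ccl11, Ccl19 and Ccl21a, and the receptor gene Ccr2, 7 gene symbols in all. They were taken by symbol from the count matrices of a mouse mammary gland single-cell series, where they occupy 9 of 27998 gene rows. Ccl19 and Ccl21a each had a second row on an unplaced scaffold with 0 UMIs (unique molecular identifiers, each counting 1 captured mRNA molecule), so 7 rows carried the signal. In the cells that passed quality filters Ccl11 gave 597349 UMIs, Ccl2 487439, Ccl7 475613, Ccl8 105083, Ccl21a 41216, Ccr2 29813 and Ccl19 4565.

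CC chemokines are small secreted proteins that steer leukocytes along concentration gradients through G protein-coupled receptors. Ccl2 and Ccl7 are monocyte chemoattractants, and Ccl8 is grouped with them here. Ccl2 and Ccl7 bind CCR2, the receptor that brings inflammatory monocytes out of the bone marrow and into tissue, and Ccl11 (eotaxin) draws eosinophils through CCR3. Ccl19 and Ccl21a are the ligands of CCR7 and guide T cells and dendritic cells toward lymph nodes. In the mammary gland, macrophages and eosinophils take part in ductal growth, and fibroblasts are among the stromal cells that surround the ducts.

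The series asked how ovarian hormones and flame retardants (polybrominated diphenyl ethers, PBDEs) act on the gland of C57BL/6J mice aged 43 weeks whose ovaries had failed after 4-vinylcyclohexene diepoxide (VCD), a compound toxic to small ovarian follicles. There were 12 libraries, 1 per group. The Intact group received no VCD. The other 11 groups received VCD intraperitoneally at 160 mg/kg/day over 15 days, with 100 days given as the time from VCD to diet. Of these, 9 formed a complete layout of 3 hormone states by 3 PBDE states. The hormone states were none, 17β-estradiol (E2, 1 µg per animal per day) and E2 with progesterone (P4, 1 mg per animal per day), given for 1 week. The PBDE states were none, low (PBDE 47, 100 and 153 at 0.05, 0.0028 and 0.0063 mg/kg/day for 20 weeks) and high (1, 0.056 and 0.126 mg/kg/day for 1 week), so that low and high differed in duration as well as dose. The 9 libraries are VCD_Vehicle, VCD_E2 and VCD_E2_P4 without PBDE, VCD_Low_PBDE, VCD_Low_E2 and VCD_Low_E2_P4, and VCD_High_PBDE, VCD_High_PBDE_E2 and VCD_High_PBDE_E2_P4. The remaining 2 were VCD_E2_ICI, given E2 and 1 dose of 5 mg per animal of ICI, a compound that degrades the estrogen receptor, and VCD_Vehicle_NormEnv, whose last word the labels do not explain. The number of animals behind each library was not given in the sources used here, so p-values measure the spread between single libraries of different groups.

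The libraries held 2497 to 10006 cell barcodes and 41737881 to 109224969 UMIs, and 46257 of 58620 barcodes passed. Pairs of libraries shared 0 to 15 barcodes. VCD_Low_E2_P4 stood apart, with the most barcodes and the lowest median of UMIs per cell, 11843, against up to 20446 elsewhere, and its removal is given below where it bears on a result. Cells were assigned by marker genes, none of which is a chemokine or Ccr2. Fibroblasts (31413 cells) were divided into Fib_0-like (11014 cells, Dpp4 and Pi16), Fib_1-like (6304, Fabp4 and Lpl), Fib_2-like (4015, Tnc and Mfap4) and Fib_3-like (3854, Gdf10 and F3). There were 1040 macrophages and 2060 T cells. Pi16 ran from 3285 to 5555 CPM (a gene's UMIs divided by all UMIs of the population in that library and scaled to a fixed total, so that levels compare across libraries) in Fib_0-like cells, C1qa from 2852 to 4065 CPM in macrophages and Cd3e from 360 to 706 CPM in T cells. Some subset markers overlapped: Mfap4 ran from 118 to 799 CPM in Fib_2-like and from 35.0 to 178 CPM in Fib_3-like cells. Before scores were standardized, Fib_2-like cells had a median score of 1.18 on their own marker list and 1.08 on the Fib_1-like list. The subset marker lists come from the study's own account of these cells and are not independent of them.

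The ligand genes form 2 clusters. On the GRCm38 (mm10) assembly, in GENCODE M21, Ccl2 (chromosome 11, 82035571 to 82037453), Ccl7 (82045712 to 82047525), Ccl11 (82057823 to 82062955) and Ccl8 (82115185 to 82116799) are protein-coding genes on the plus strand within 81.2 kb. Ccl19 (chromosome 4, 42754525 to 42756577) and Ccl21a (42772860 to 42773993) lie on the minus strand within 19.5 kb, and Ccr2 lies on the plus strand of chromosome 9 (124101950 to 124113557). Sequence shared with other genes limits the chromosome 4 pair. Of the 101-base windows of annotated transcript, 39.2% in Ccl19 and 49.9% in Ccl21a also occur in other genes, among them Ccl19-ps1 and Ccl21b, against 0 in the chromosome 11 genes. Levels of Ccl19 and Ccl21a are therefore uncertain where reads could not be placed.

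The stretch of 250 bases that precedes the annotated start of Ccl8 is printed because Ccl8 had the largest called E2 difference among these genes. It is the RefSeq sequence of GRCm38.p6, chr11:82114935-82115184, plus strand, 5′ to 3′, and no part is in capitals because no searched motif occurred in it.

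Ccl8: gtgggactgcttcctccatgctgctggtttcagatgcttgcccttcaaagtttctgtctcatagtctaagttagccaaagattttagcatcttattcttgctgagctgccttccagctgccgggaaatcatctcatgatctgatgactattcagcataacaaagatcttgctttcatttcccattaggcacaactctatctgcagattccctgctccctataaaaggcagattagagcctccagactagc

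The motifs searched on both strands, from 250 bases before to 50 bases after each RefSeq gene start, were 2 forms of the kB motif, the core of the interferon response element, the palindromic estrogen response element and the AP-1 motif TGANTCA. They occur in 1.63% and 1.75%, 3.44%, 0.0700% and 7.81% of 32851 such windows. The table held windows for Ccl8, Ccl19, Ccl21a and Ccr2, and only that of Ccl19 had matches, which are GGGAAGACCC (kB motif, read on the minus strand, from base -250) and GAAAGTGAAA (interferon response element core, from base -208). A match describes letters, not a site that a factor was seen to bind. The windows of Ccl2, Ccl7 and Ccl11 were not analysed here.

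Per UMI, macrophages held more Ccl2 than every fibroblast subset in 12 of 12 libraries, and fibroblasts held nearly all Ccl11. Macrophages were also above the 4 subsets in 11 of 12 libraries for Ccl7 (not in VCD_High_PBDE_E2_P4, 1724 CPM against 2068 in Fib_3-like cells) and for Ccl8 (not in VCD_Low_E2_P4, 191 against 373 CPM). Ccl2 ran from 1316 to 3539 CPM in the macrophages of the 12 libraries (median 2325), from 265 to 1296 in Fib_0-like cells (median 772), from 233 to 707 in Fib_1-like, from 77.9 to 596 in Fib_2-like, from 156 to 1058 in Fib_3-like and from 7.73 to 92.5 in T cells. Every macrophage value was above every fibroblast subset value. Compared within libraries by edgeR's quasi-likelihood test, macrophages exceeded all gated fibroblasts by 1.88 ± 0.18 (log2, SE, adjusted p = 4.92e-11) for Ccl2, 1.10 ± 0.12 (edgeR adjusted p = 1.03e-09) for Ccl7 and 2.54 ± 0.23 (edgeR adjusted p = 1.62e-11) for Ccl8. In these comparisons most genes differ between cell types: the edgeR test called 80.1% of all genes between macrophages and fibroblasts, 83.8% between T cells and fibroblasts and 69.5% between macrophages and T cells, and 16 of 18 tests of these 7 genes. Fibroblasts were more numerous. Macrophages held 6.78% of Ccl2, 4.34% of Ccl7, 13.2% of Ccl8 and 0.0338% of Ccl11 UMIs. Fib_0-like cells alone held 34.6%, 25.1%, 14.8% and 24.9% in the same order.

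T cells are not a main source of these ligands and served as the level of free RNA. After each cell was thinned to 5000 UMIs, with shallower cells left out, Ccl7 was detected in 64.8% of macrophages, 47.0% of Fib_0-like cells and 10.1% of T cells. Ccl8 was detected in 35.3% of macrophages, 44.3% of Fib_3-like cells and 2.00% of T cells. Median UMIs per cell before thinning were 11399 in macrophages, 18516 in Fib_0-like, 13490.5 in Fib_3-like and 5749.5 in T cells. Ccl11 in macrophages, 9.43 to 26.1 CPM, lay in the T cell range of 4.13 to 30.3 CPM (edgeR difference -0.24 ± 0.18 log2, adjusted p = 0.253, 95% interval -0.61 to 0.14), and is read as background. In the 4 fibroblast subsets Ccl11 ran from 364 to 1613 CPM.

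**Figure D1:**
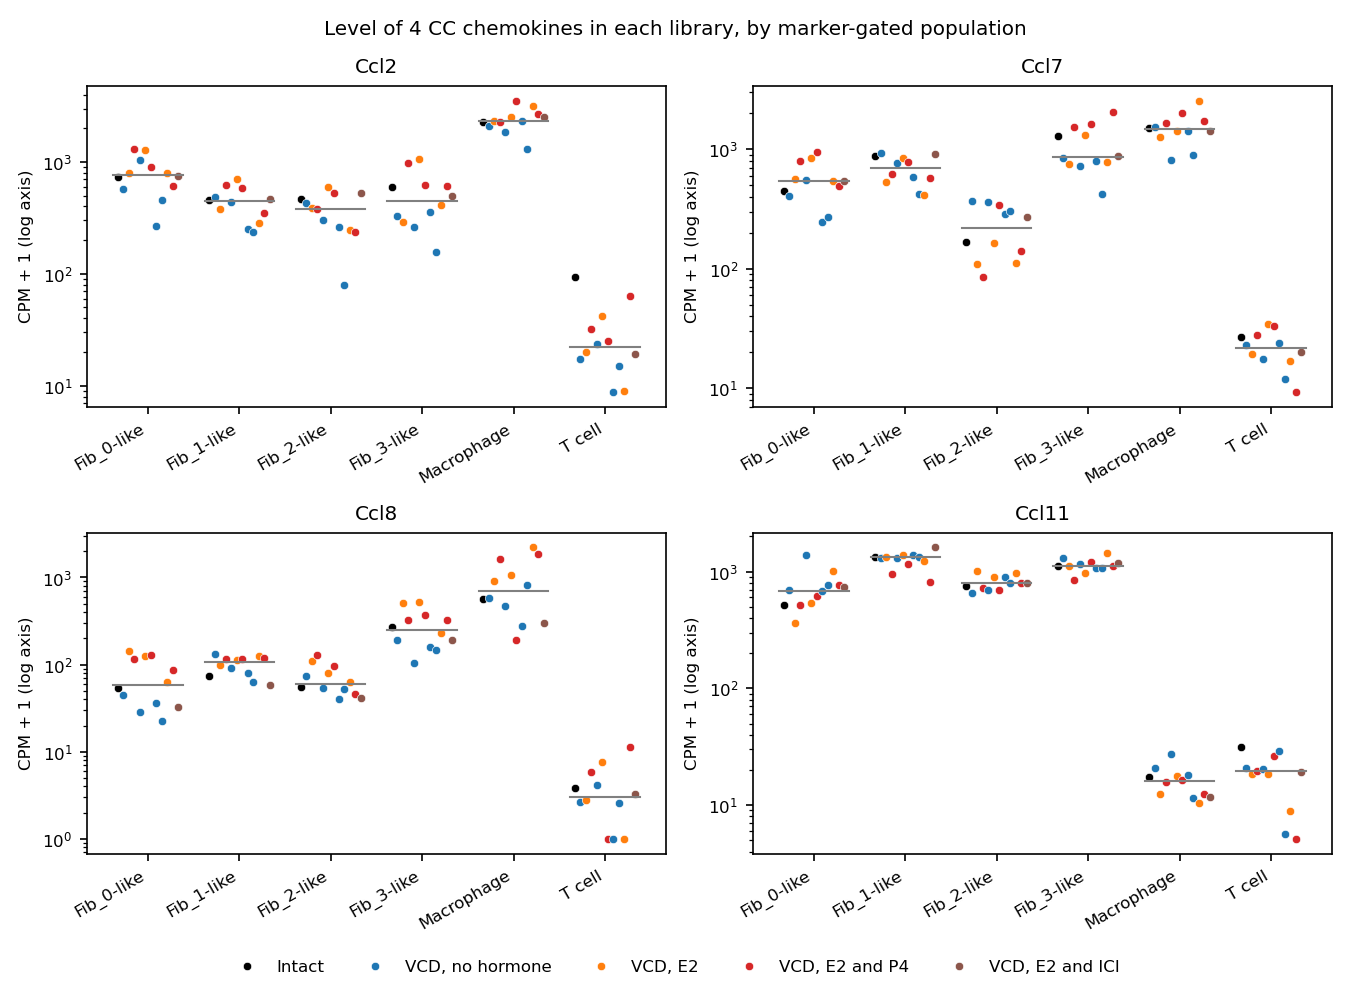
Levels of Ccl2, Ccl7, Ccl8 and Ccl11 in 4 marker-gated fibroblast subsets, macrophages and T cells. Each point is 1 of 12 libraries, the vertical axis is CPM + 1 on a log scale colours give the hormone state and grey lines are medians over libraries. Ccl2 is highest in macrophages (median 2325 CPM), while Ccl11 in macrophages (median 15.1 CPM) lies at the level of T cells.

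The ligands divided the fibroblast subsets differently. The edgeR test of each subset against the other 3, with library as a block, called 16 of 24 tests of the 6 ligands, against 71.7%, 60.3%, 60.5% and 51.1% of all genes for Fib_0-like to Fib_3-like, so the number called is near the background. Ccl2 was higher in Fib_0-like cells than in the others (0.92 ± 0.13 log2, edgeR adjusted p = 5.44e-08). Fib_3-like cells had more Ccl8 (1.82 ± 0.12, edgeR adjusted p = 1.53e-15), Ccl7 (1.32 ± 0.18, adjusted p = 8.99e-08) and Ccl19 (1.65 ± 0.19, adjusted p = 1.33e-09) than the other 3. Ccl11 was higher in Fib_1-like cells (0.57 ± 0.10, edgeR adjusted p = 3.34e-06), and Fib_2-like cells had less Ccl7 (-1.78 ± 0.22, adjusted p = 4.24e-09) together with high Ccl19 (1.18 ± 0.19, adjusted p = 1.05e-06). Ccl21a passed in no subset, and Ccr2 was too low to test. Of the 16 calls, the higher Ccl7 of Fib_1-like cells (0.44 ± 0.18, edgeR adjusted p = 0.0376) was the only one lost when single libraries were left out. It was lost for 7 of the 12, and its edgeR adjusted p reached 0.102 without VCD_E2_ICI. It was also lost with no filter on low counts (0.42, edgeR adjusted p = 0.0578). With no removal of fibroblasts by the 6 genes of other cell types it was 0.29 (edgeR adjusted p = 0.166).

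Ligand UMIs were spread unevenly over cells. In the median library the tenth of cells with the most UMIs of a gene held 83.8% to 92.3% of Ccl2 UMIs in the 4 fibroblast subsets, against 39.5% in macrophages, and 28.0% to 36.1% of Ccl11 UMIs in fibroblasts. At 5000 UMIs a Ccl2 UMI was found in 32.2% of Fib_0-like cells and 10.7% of T cells, and a Ccl11 UMI in 83.3% and 8.90%. Ccl2 and Ccl7 were found in the same cells: at 5000 UMIs, Ccl7 was detected in a median of 68.8% of Fib_0-like cells with Ccl2 and 36.0% of those without, in 71.5% and 36.9% of Fib_3-like cells, and in 74.6% and 20.7% of macrophages, with the same direction in 12 of 12 libraries in each. For Ccl2 and Ccl8 in Fib_0-like cells the shares were 19.3% and 16.3%.

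Libraries given E2 had more Ccl8 in Fib_0-like and Fib_3-like fibroblasts, more Ccl7 in Fib_0-like and less Ccl7 in Fib_2-like cells. Ccl7 and Ccl2 also passed as higher in Fib_3-like cells, but each of these calls was lost in 7 of 9 refits with a library left out, with DESeq2 and with E2 alone against no hormone. The test compared the 6 libraries given E2, with or without P4, with the 3 of the layout given no hormone, PBDE state being a covariate. Of 32 tests of these genes, edgeR called 6, and 18 had an unadjusted p under 0.05. Over all genes such a p was found for 3702 of 12814 in Fib_0-like and 3166 of 12071 in Fib_1-like cells. It was found for 5065 of 11848 in Fib_2-like and 2253 of 11552 in Fib_3-like cells. The counts were 988 of 8374 in macrophages and 358 of 8463 in T cells. In Fib_0-like cells 2 of 7 members rose and 0 fell, beside 5.34% of all genes higher and 4.75% lower (10.1% called). Fib_1-like cells had 0 of 6 called, beside 4.8% higher and 3.45% lower (8.25%). In Fib_2-like cells 0 of 5 rose and 1 fell, beside 16.2% higher and 15.3% lower (31.6%), so that 1 of 5 is no more than the background. In Fib_3-like cells 3 of 5 rose, beside 2.09% higher and 0.987% lower (3.07%). Macrophages had 0 of 5 called, beside 0.215% of all genes, and T cells 0 of 4, beside 0.0118%. DESeq2 called 7, of which 4 were shared. Its share of all genes was not computed.

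Ccl8 in Fib_0-like cells was 44.3 CPM in VCD_Vehicle, 27.7 in VCD_Low_PBDE and 21.4 in VCD_High_PBDE. With E2 it was 143 CPM without PBDE, 124 with low and 61.5 with high PBDE, and with E2 and P4 it was 115, 128 and 86.4 CPM. All 6 E2 libraries lay above all 3 no-hormone libraries, as they did for 7.69% of all genes in this subset. The fitted difference was 1.82 ± 0.15 (log2, edgeR adjusted p = 0.00274). The call held when any of the 9 libraries was left out. The ratio within each PBDE state ran from 2.61 to 4.61. File names carry a suffix, called the run suffix here, whose meaning the labels do not give. VCD_Low_PBDE carries another suffix than VCD_Low_E2 and VCD_Low_E2_P4, so E2 ratios within low PBDE, for every gene, also cross the suffix. With the run suffix as a term the difference was 1.67 (edgeR adjusted p = 0.0226). The share of Fib_0-like cells with a Ccl8 UMI at 5000 UMIs was 7.58% to 14.4% without hormone, 18.3% to 28.8% with E2 and 22.9% to 32.4% with E2 and P4.

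In Fib_3-like cells, where Ccl8 started higher, it was 190 CPM in VCD_Vehicle, 104 in VCD_Low_PBDE and 145 in VCD_High_PBDE. With E2 it was 512, 519 and 231 CPM in the same order of PBDE states, and with E2 and P4 326, 373 and 321 CPM. Again all E2 libraries lay above all no-hormone libraries (3.46% of all genes in this subset did). The fitted difference was 1.43 ± 0.22 (log2, edgeR adjusted p = 0.0102). Without VCD_Low_PBDE, the lowest library, it was 1.12 with an edgeR adjusted p of 0.0515. With E2 alone against no hormone it was 1.51 with an edgeR adjusted p of 0.0734. With the run suffix as a term it was 1.12 (edgeR adjusted p = 0.0459). Fib_1-like cells, at 62.1 to 133 CPM without hormone and 97.9 to 126 CPM with E2, gave 0.24 ± 0.19 (edgeR adjusted p = 0.443), and Fib_2-like cells gave 0.45 ± 0.16 (edgeR adjusted p = 0.0504). The latter passed in 6 of 18 alternative settings, among them a mitochondrial limit of 10% (edgeR adjusted p = 0.0035) and the fits without VCD_High_PBDE (0.0175) or VCD_High_PBDE_E2_P4 (0.0044).

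**Figure D2:**
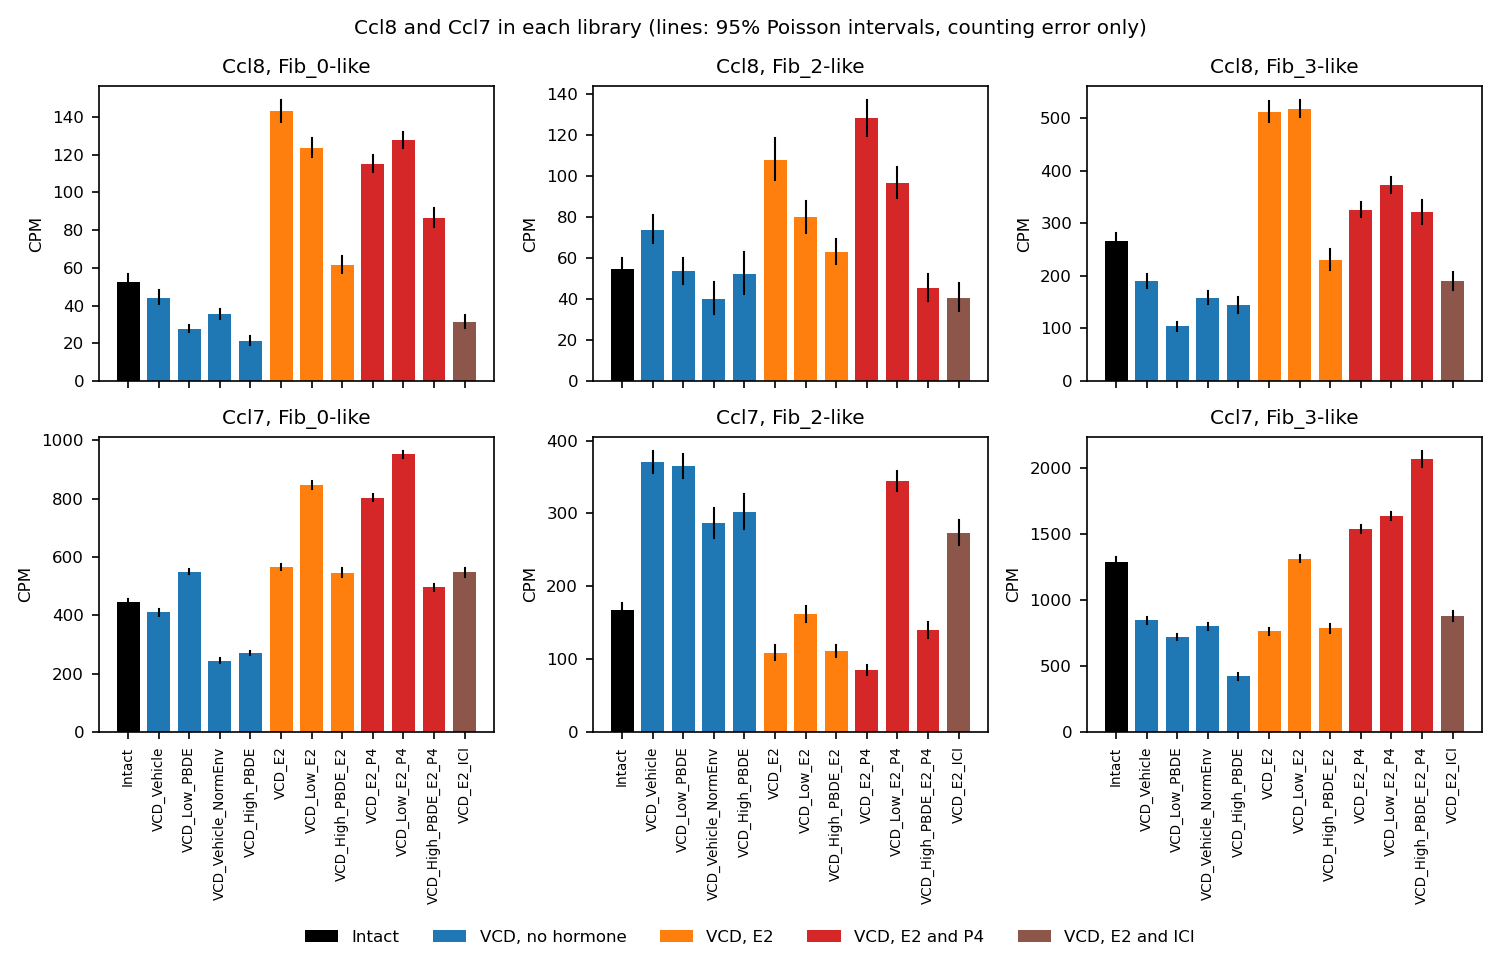
Ccl8 and Ccl7 in Fib_0-like, Fib_2-like and Fib_3-like fibroblasts by library. Bars start at 0 and give CPM, and error bars are exact 95% Poisson intervals, which cover counting error only. Among the 9 layout libraries, Ccl8 in Fib_0-like and Fib_3-like cells is above the no-hormone libraries in every library given E2, while Ccl7 in Fib_2-like cells is lower with E2 except in VCD_Low_E2_P4 (344 CPM).

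Ccl7 in Fib_0-like cells was 410, 549 and 271 CPM without hormone (no, low and high PBDE), 565, 847 and 546 CPM with E2 and 803, 951 and 496 CPM with E2 and P4. It rose within each PBDE state although the groups overlapped. The fitted difference was 0.78 ± 0.12 (log2, edgeR adjusted p = 0.0107), with an adjusted p of up to 0.0495 when a library was left out. The call was lost with the run suffix of the file names as a term (0.85, edgeR adjusted p = 0.0530) and with E2 alone against no hormone (0.64, adjusted p = 0.0990). In Fib_3-like cells Ccl7 was 845, 721 and 420 CPM without hormone, 762, 1313 and 783 CPM with E2 and 1537, 1633 and 2068 CPM with both hormones. The difference there was 1.03 ± 0.24 (log2, edgeR adjusted p = 0.0421). That call sat close to the threshold and was lost without any of 7 of the 9 libraries (all but VCD_Vehicle and VCD_Low_E2_P4) and with DESeq2 (adjusted p = 0.0993). With E2 alone against no hormone it was 0.56 (edgeR adjusted p = 0.329), and with the run suffix as a term it was 1.02 (adjusted p = 0.180). It was also lost with a gate margin of 1 (1.12, edgeR adjusted p = 0.0540) and with no removal by the 6 genes of other cell types (1.01, adjusted p = 0.0885).

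Fib_2-like cells moved the other way. Their Ccl7 was 370, 365 and 302 CPM without hormone, 109, 162 and 111 CPM with E2 and 85.1, 344 and 139 CPM with E2 and P4. Only VCD_Low_E2_P4, at 344 CPM, reached the no-hormone range. The difference was -1.35 ± 0.24 (log2, edgeR adjusted p = 0.00197), and -1.57 without VCD_Low_E2_P4. The ratio to no hormone was below 1 in 6 of 6 pairs, from 0.230 to 0.942. Depth moved with it: Fib_2-like cells had medians of 8469 to 10242 UMIs without hormone and 16770.5 to 26867.5 UMIs with E2, and 31.6% of all genes were called, so the part of depth in this difference was not tested. At 5000 UMIs Ccl7 was detected in 18.1% to 24.8% of these cells without hormone and in 11.4% to 33.1% with E2, with or without P4.

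Ccl2, the ligand with the most UMIs in macrophages, was 331, 261 and 156 CPM in Fib_3-like cells without hormone, 292, 1058 and 412 CPM with E2 and 987, 622 and 603 CPM with E2 and P4. VCD_E2 fell within the no-hormone range. The difference of 1.47 ± 0.34 (log2, edgeR adjusted p = 0.0455) was lost without any of 7 of the 9 libraries (all but VCD_E2 and VCD_Low_E2_P4) and with DESeq2 (1.47, adjusted p = 0.124). It was also lost with the run suffix as a term (1.31, edgeR adjusted p = 0.226), with E2 alone (1.11, adjusted p = 0.261), with no removal by the 6 genes (1.40, adjusted p = 0.0678) and without the cells of most UMIs (1.36, adjusted p = 0.0510). In Fib_0-like cells the difference was 0.49 ± 0.24 (edgeR adjusted p = 0.216), in Fib_1-like 0.30 ± 0.15 (adjusted p = 0.254) and in Fib_2-like 0.61 ± 0.25 (adjusted p = 0.0843).

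In macrophages none of the ligands passed in edgeR with low counts filtered, while with no filter Ccl2 (edgeR adjusted p = 1.26e-05), Ccl7 (2.65e-06) and Ccl8 (1.09e-09) did. The share of all genes called with no filter was not computed. The Ccl8 difference with no filter was 0.94, near that of the filtered fit given below. Ccl2 there was 2088, 1838 and 1316 CPM without hormone, 2319, 2531 and 3175 CPM with E2 and 2275, 3539 and 2674 CPM with E2 and P4. The groups did not overlap, as for 5.41% of all genes in macrophages, and the difference was 0.63 ± 0.18 (log2, edgeR adjusted p = 0.195, DESeq2 adjusted p = 0.0483). Macrophage Ccl8 was 581, 472 and 811 CPM without hormone and 901, 1071 and 2219 CPM with E2, but with both hormones it was 1642, 191 and 1834 CPM. The low value belongs to VCD_Low_E2_P4. With that library the difference was 0.89 ± 0.37 (edgeR adjusted p = 0.373), and without it 1.22 (edgeR adjusted p = 0.0129). With E2 alone against no hormone it was 1.04 (edgeR adjusted p = 0.0372). Macrophage Ccl7 gave 0.69 ± 0.24 (edgeR adjusted p = 0.286). These sums rest on 50 to 139 cells per library.

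Ccl11 did not pass in any population. In Fib_0-like cells it was 692, 1380 and 772 CPM without hormone, 364, 538 and 1005 CPM with E2 and 515, 617 and 766 CPM with E2 and P4, a difference of -0.64 ± 0.26 (log2, edgeR adjusted p = 0.152). Without VCD_High_PBDE or VCD_High_PBDE_E2 it passed (edgeR adjusted p = 0.0411 and 0.0406), lower with E2. In Fib_3-like cells the difference was -0.05 ± 0.15, with a 95% interval of -0.37 to 0.28.

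**Figure D3:**
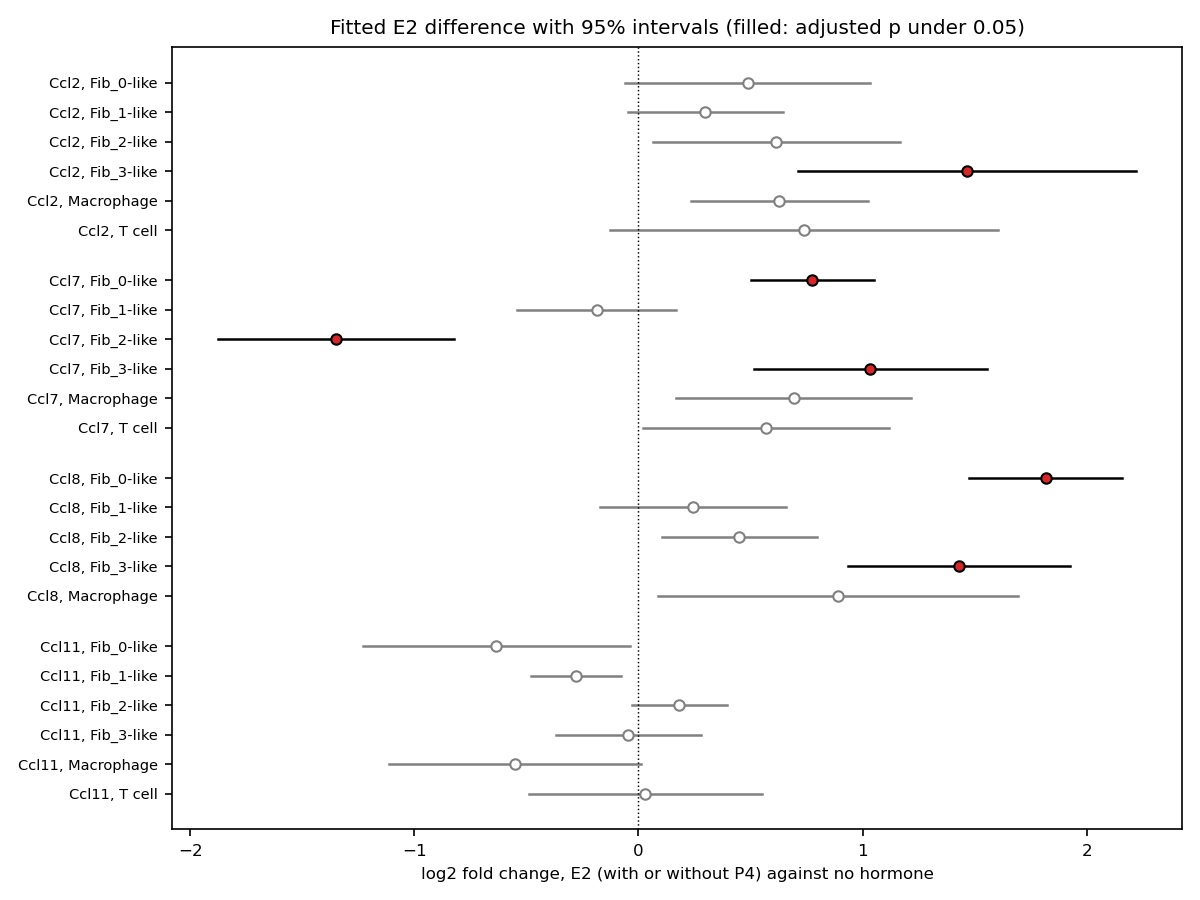
Fitted E2 difference of Ccl2, Ccl7, Ccl8 and Ccl11 by population. The horizontal axis is the log2 fold change of libraries given E2, with or without P4, against no hormone, bars are 95% intervals and filled points have an edgeR adjusted p under 0.05. Ccl8 in Fib_0-like cells is farthest to the right (1.82) and Ccl7 in Fib_2-like cells farthest to the left (-1.35).

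The E2 difference was itself compared between subsets. In the interaction test, Fib_0-like cells differed from the mean of the other 3 subsets for 3 of 6 ligands (14.8% of all genes): Ccl8 by 1.09 ± 0.24 (log2, edgeR adjusted p = 0.00324), Ccl7 by 0.92 ± 0.26 (adjusted p = 0.0160) and Ccl19 by 1.36 ± 0.41 (adjusted p = 0.0275). Ccl2, Ccl11 and Ccl21a did not pass, and gave -0.34 ± 0.27, -0.55 ± 0.23 and -0.17 ± 0.74. The E2 differences of Ccl7 and Ccl8 were also positive in Fib_3-like cells, and Fib_0-like cells were not tested against that subset alone. The same test was run for the other subsets after values were seen, where it called 2.45%, 27.5% and 4.16% of all genes for Fib_1-like to Fib_3-like cells, and for Fib_2-like cells it gave -1.86 ± 0.25 for Ccl7 (edgeR adjusted p = 5.49e-06). The Ccl8 difference of Fib_0-like cells and the Ccl7 difference of Fib_2-like cells held without any single library. Without VCD_Vehicle or VCD_High_PBDE, Ccl8 was the only one of the 3 calls in Fib_0-like cells that held.

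The interferon-induced genes and the immediate early genes, which respond within minutes to stress, were set beside the ligands because many chemokine genes are known to respond to interferon and to stress. Of 16 interferon-induced genes, 9 rose and 0 fell with E2 in Fib_0-like cells (median log2 difference 1.17, against -0.00192 over all genes), 12 rose in Fib_3-like (median 1.46) and 8 in Fib_1-like cells. Their summed level ran from 1624 to 3010 CPM without hormone and from 3721 to 6916 CPM with E2 in Fib_0-like cells, and from 889 to 1827 CPM and from 2667 to 6518 CPM in Fib_3-like cells. In Fib_2-like cells 0 of 15 rose and 3 fell, a share near that of all genes. The shares of all genes higher and lower with E2 were 5.34% and 4.75% in Fib_0-like, 4.8% and 3.45% in Fib_1-like, 16.2% and 15.3% in Fib_2-like and 2.09% and 0.987% in Fib_3-like cells, and 0.215% were called in macrophages in all. Of 18 immediate early and heat shock genes, 17 fell in Fib_2-like cells (median -1.03), 11 in Fib_1-like, 3 in Fib_0-like and 4 in Fib_3-like cells. Their sum in Fib_2-like cells ran from 29600 to 37086 CPM without hormone and from 12091 to 21570 CPM with E2. Of 16 NF-kB targets, 9 fell and 1 rose in Fib_2-like cells, 2 fell in Fib_1-like, 1 rose in Fib_0-like and 0 were called in Fib_3-like cells. In macrophages 2 of 16 interferon-induced genes rose, and in T cells 0 of 15 were called, while 0 genes of the other 2 lists were called in either. The part of these programmes in the ligand differences was not tested.

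Macrophage RNA in the fibroblast sums was low. The 7 macrophage markers C1qa, C1qb, C1qc, Csf1r, Adgre1, Cd68 and Lyz2 together gave 10.4 to 97.8 CPM in fibroblast subsets against 18207 to 24656 CPM in macrophages, and 0 of them was called with E2 in a fibroblast subset. In Fib_0-like cells the median log2 difference with E2 of the 6 tested was 0.75 (-0.00192 over all genes), and their sums of 11.6 to 16.0 CPM without hormone and 12.6 to 30.7 CPM with E2 overlapped. In Fib_3-like cells the median of the 4 tested was 1.16. In Fib_3-like cells their sum was 10.4 to 14.3 CPM without hormone and 15.8 to 97.8 CPM with E2, the highest value being that of VCD_Low_E2_P4. Without that library the 3 Fib_3-like calls held, with 1.42 for Ccl8, 1.14 for Ccl7 and 1.60 for Ccl2. The other libraries given E2, at 15.8 to 23.8 CPM of these markers, still lay above the no-hormone libraries. The part of macrophage RNA in the ligand differences was not tested.

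Ccl19 was scarce and found in fibroblasts. It gave 3.33 to 23.8 CPM in Fib_2-like and 10.9 to 19.4 CPM in Fib_3-like cells, 0.443 to 3.46 CPM in Fib_0-like cells, and 0 UMIs in the 1040 macrophages and 2060 T cells, which allows shares of up to 0.288% and 0.146% of cells with a UMI. At 6.94 CPM over all fibroblasts it was at least 31.3-fold higher than in macrophages and at least 37.4-fold higher than in T cells, against a floor of 3 UMIs over the summed libraries. In Fib_0-like cells it was 1.94, 1.34 and 0.443 CPM without hormone, 2.91, 1.52 and 1.26 CPM with E2 and 3.46, 2.86 and 3.03 CPM with both hormones (0.97 ± 0.31 log2, edgeR adjusted p = 0.0851). The E2 differences in the other 3 subsets, in order, were -0.24, -0.74 and -0.24, and none passed.

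Ccl21a belonged to lymphatic endothelium. The 50 lymphatic endothelial cells of the series held 86.1% of its UMIs, at 36983 CPM over the summed libraries, and fibroblasts held between 0.0344 and 7.12 CPM. That range leaves out fibroblasts removed for a UMI of the 6 genes of other cell types, which held 6.41% of its UMIs. The fibroblast level was highest in VCD_Low_E2_P4 (7.12 CPM), VCD_Vehicle_NormEnv (2.11) and VCD_Low_E2 (2.05), libraries with 10, 9 and 16 lymphatic endothelial cells, while 0 to 3 such cells were found in the libraries below 1.5 CPM. The edgeR differences with E2 in Fib_0-like and Fib_1-like cells, 3.35 ± 1.01 (adjusted p = 0.0750) and 3.63 ± 1.07 (adjusted p = 0.0671), rest on such levels, and the part of free RNA in them was not tested.

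Ccr2, the receptor, was found in leukocytes. It gave 235 to 597 CPM in macrophages (median 416), 171 to 418 CPM in T cells (median 290), 220 to 765 CPM in monocytes (412 cells) and 0 to 1.86 CPM in fibroblast subsets. The fibroblast range leaves out fibroblasts removed for a UMI of the 6 genes of other cell types, which held 15.0% of Ccr2 UMIs. Macrophages exceeded T cells by 0.48 ± 0.15 (log2, edgeR adjusted p = 0.00437), while at 5000 UMIs 56.0% of macrophages and 56.2% of T cells had a Ccr2 UMI. Monocyte and T cell ranges overlapped with those of macrophages. In macrophages Ccr2 was 450, 327 and 597 CPM without hormone, 504, 550 and 235 CPM with E2 and 457, 408 and 425 CPM with both hormones. It did not differ beyond the spread of libraries (-0.11 ± 0.23 log2, edgeR adjusted p = 0.916, 95% interval -0.60 to 0.38), nor in T cells (0.22 ± 0.18, adjusted p = 1.00, 95% interval -0.17 to 0.61). In Fib_0-like cells, at under 2 CPM, Ccr2 gave 0.92 ± 0.37 (edgeR adjusted p = 0.149). Cells without a marker-based name held 36.5% of Ccr2 UMIs.

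**Figure D4:**
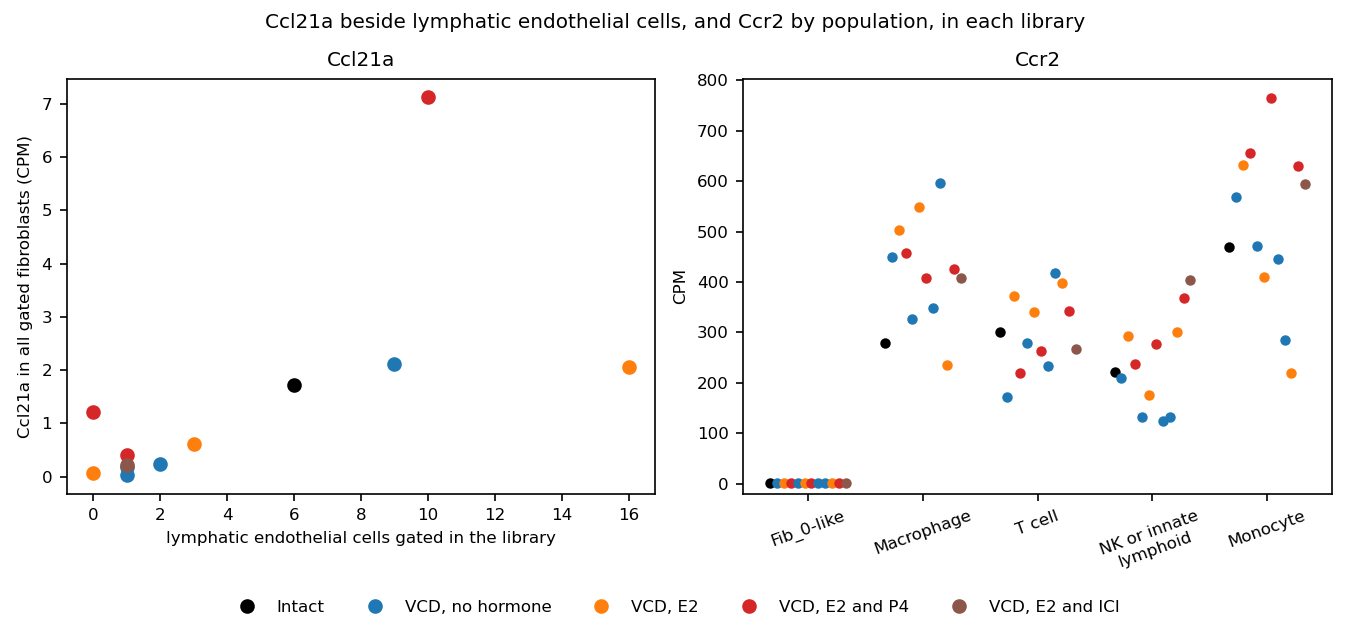
Ccl21a in fibroblasts beside the number of lymphatic endothelial cells in each library, and Ccr2 by population, in CPM. Points are the 12 libraries, coloured by hormone state. The fibroblast Ccl21a level is at most 7.12 CPM, and Ccr2 is at 235 to 597 CPM in macrophages and 171 to 418 CPM in T cells.

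Neither P4 nor PBDEs gave a called difference of these 7 genes in edgeR with low counts filtered. With no filter it called 2 for P4, 1 for low PBDE and 9 for high PBDE. The share of all genes called with no filter was not computed. For P4 added to E2, 0 of 32 tests passed (5 at an unadjusted p under 0.05), beside 0.0624%, 0.77%, 2.03% and 0.199% of all genes in Fib_0-like to Fib_3-like cells, 0.346% in macrophages and 0.0118% in T cells. Over the subsets in that order, 1235 of 12814, 1950 of 12071, 1977 of 11848 and 972 of 11552 genes had an unadjusted p under 0.05. Macrophages had 570 of 8374 and T cells 1260 of 8463. DESeq2, whose share of all genes was not computed, called 1. The smallest unadjusted p belonged to Ccl11 in Fib_1-like cells, -0.46 ± 0.10 (edgeR adjusted p = 0.0805), and Ccl7 in Fib_3-like cells, 0.99 ± 0.26 (edgeR adjusted p = 0.301). The other 3 below an unadjusted 0.05 were Ccl11 in Fib_2-like cells (-0.40), Ccr2 in T cells (-0.52) and Ccl19 in Fib_0-like cells (0.85). Over the populations tested, Ccl2 ran from -0.11 to 0.49, Ccl8 from -0.38 to 0.15 and Ccl21a from 0.19 to 1.51. Fib_1-like Ccl11 was 1327, 1382 and 1238 CPM with E2 and 955, 1153 and 806 CPM with P4 added. It passed in DESeq2 (adjusted p = 0.0173) and without VCD_High_PBDE (edgeR adjusted p = 0.0453).

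For low PBDE, 0 of 32 tests passed in edgeR (4 unadjusted; DESeq2 called 0), beside 0.00828% of all genes in Fib_1-like cells and 0% in the other 5 populations. The 4 were Ccl7 in Fib_0-like (0.43) and Fib_2-like cells (0.84), Ccl8 in Fib_2-like cells (-0.44) and Ccl21a in Fib_0-like cells (2.56), and over the populations tested Ccl2 ran from 0.15 to 0.45, Ccl11 from -0.06 to 0.65, Ccl19 from -0.54 to 0.34 and Ccr2 from -0.10 to 0.28. An unadjusted p under 0.05 was found for 627 of 12814, 326 of 12071, 350 of 11848 and 399 of 11552 genes in Fib_0-like to Fib_3-like cells. It was found for 242 of 8374 in macrophages and 210 of 8463 in T cells.

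For high PBDE, 0 of 32 passed in edgeR (13 unadjusted), beside 0.039%, 0.273%, 0.076%, 0.0606%, 0.203% and 0.106% of all genes in the order of populations above. In the fibroblast subsets 2485 of 12814, 1830 of 12071, 1602 of 11848 and 1590 of 11552 genes had an unadjusted p under 0.05. In macrophages 687 of 8374 and in T cells 746 of 8463 had one. DESeq2, whose share of all genes was not computed, called 5, all lower. These were Ccl2 and Ccl7 in Fib_1-like, Ccl7 and Ccl8 in Fib_0-like and Ccl8 in Fib_2-like cells. In edgeR the high PBDE difference of Ccl8 was -0.90 ± 0.16 (adjusted p = 0.0748) in Fib_0-like and -0.99 ± 0.18 (adjusted p = 0.116) in Fib_2-like cells, and that of Ccl2 in Fib_1-like cells was -0.90 ± 0.18 (adjusted p = 0.0825, and 0.0348 without VCD_E2 or 0.0492 without VCD_Low_E2). Among the rest below an unadjusted 0.05, Ccr2 in T cells (0.65) and Ccl11 in Fib_0-like cells (0.77) were higher, and Ccl19 was lower in Fib_0-like (-0.96), Fib_1-like (-0.89) and Fib_2-like cells (-1.31), as were Ccl2 in Fib_2-like cells (-1.30) and Ccl7 (-0.93) and Ccl11 (-1.67) at their low level in T cells. Without the cells of most UMIs, Ccl2 in Fib_2-like cells passed (-0.91, edgeR adjusted p = 0.0396). Ccl21a gave -0.08 and 0.25 in the 2 subsets tested. Ccl2 in Fib_1-like cells was 488, 382 and 623 CPM without PBDE (no hormone, E2, E2 and P4) and 233, 283 and 348 CPM with high PBDE. All layout libraries without PBDE carry one run suffix in their file names and all with high PBDE carry the other. Only the low PBDE libraries, 1 with the first suffix and 2 with the second, tell the suffix from high PBDE. Among them the library without hormone has the first suffix and the 2 given E2 have the second, so the suffix there coincides with E2. With the suffix as a term 0 members passed under high PBDE, and the differences were -1.32 for Ccl8 in Fib_0-like cells (edgeR adjusted p = 0.265) and -1.26 for Ccl2 in Fib_1-like cells (adjusted p = 0.511). Of the libraries without PBDE that carry the suffix of the high PBDE libraries, VCD_Vehicle_NormEnv had Fib_1-like Ccl2 between VCD_High_PBDE (233 CPM) and VCD_High_PBDE_E2 (283 CPM) and VCD_E2_ICI had 463 CPM, and the low PBDE libraries of that suffix, VCD_Low_E2 and VCD_Low_E2_P4, had 707 and 586 CPM.

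The 3 remaining groups are single libraries, and their values are a description with no test. VCD_E2_ICI was set against VCD_E2, which carries the other run suffix. Ccl8 was 143 CPM in VCD_E2 and 31.3 CPM in VCD_E2_ICI in Fib_0-like cells (ratio 0.218), 108 and 40.6 in Fib_2-like, 512 and 190 in Fib_3-like and 901 and 297 in macrophages. Ccl7 in Fib_2-like cells was 109 CPM in VCD_E2 and 273 CPM in VCD_E2_ICI, and Ccl11 in Fib_0-like cells was 364 and 738 CPM. Those 6 were at least 2-fold apart, as were 3.36%, 1.33%, 5.37%, 2.93%, 11.2% and 10.2% of genes in Fib_0-like to Fib_3-like cells, macrophages and T cells. Ccl7 in Fib_0-like and Fib_3-like cells and Ccl2 in Fib_3-like cells, also called as higher with E2, were not among them.

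Against VCD_Vehicle, the Intact library was at least 2-fold apart in 2 cases, beside 0.363%, 0.806%, 2.36%, 0.941%, 14.5% and 12% of genes in that order. Ccl7 in Fib_2-like cells was 370 CPM in VCD_Vehicle and 167 CPM in Intact, and Ccl2 in T cells was 16.4 and 92.5 CPM. VCD_Vehicle_NormEnv, of the other run suffix than VCD_Vehicle, was apart in 3 cases, beside 0.323%, 1.07%, 2.06%, 0.741%, 14% and 11.1% of genes. These were Ccl2 in Fib_0-like cells (576 CPM in VCD_Vehicle and 265 in NormEnv), Ccl8 in macrophages (581 and 273) and Ccl2 in T cells (16.4 and 7.73). Both of these VCD libraries were given neither hormone nor PBDE. In all 3 comparisons Ccl19, Ccl21a and Ccr2 were less than 2-fold apart or under 10 CPM in both libraries.

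The macrophage share of cells, 1.27% to 5.46% over the 12 libraries, was set against the fibroblast level of Ccl2, Ccl7 and Ccl8. Pearson's r was 0.05 for Ccl2 (permutation p = 0.877), -0.09 for Ccl7 (p = 0.782) and 0.40 for Ccl8 (p = 0.192), with Benjamini-Hochberg adjusted permutation p of 0.877, 0.877 and 0.577 over the 3. Spearman's rho was -0.05, -0.25 and 0.34 (permutation p = 0.888, 0.432 and 0.285, adjusted 0.888, 0.648 and 0.648). Without the 2 libraries farthest from the median share, r was -0.21, -0.07 and 0.28. Within the 7 libraries of one run suffix r was 0.01, -0.05 and 0.19, and the other suffix holds too few libraries. Against macrophages per 100 fibroblasts r was 0.19, 0.024 and 0.54 (permutation p = 0.556, 0.940 and 0.0678, adjusted 0.834, 0.940 and 0.203). None passed the threshold.

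Across the 48 sums of 12 libraries by 4 fibroblast subsets, the genes whose log2 CPM ran most closely with each ligand were, among 5474 genes, Cast, Nfkb1 and Rel for Ccl2 (r = 0.74, 0.74 and 0.70), Zc3h12a, Gpx3 and 9930111J21Rik2 for Ccl7 (0.83, 0.83 and 0.82), Nudt4, Hspb11 and Gas6 for Ccl8 (0.85, 0.82 and 0.81), Mgat4b, Il1r1 and Acvr2a for Ccl11 (0.81, 0.76 and 0.74) and Spock2, Kitl and Prdx4 for Ccl19 (0.90, 0.88 and 0.88). Gas6 was itself a marker used to gate Fib_3-like cells. For Ccl21a the best was Cd74 at 0.51. For Ccr2, over 24 sums of macrophages and T cells and 5565 genes, they were Alcam, Mvp and Capg (0.78, 0.77 and 0.77). The sums share libraries and depth, so these values describe and do not test.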

How the data were processed

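Single cells of mammary gland were captured on the 10x Chromium platform. The deposited values are raw UMI counts, which the authors made with Cell Ranger 3.1.0 on mm10 per the submitters' processing notes, with no normalization, and no comparisons by the authors were used. Cells below 500 genes or 1000 UMIs, or above 5% mitochondrial UMIs, were dropped. Cells were assigned to the marker list with the highest mean log score, with a margin of 0.5 and at least 3 markers detected. Fibroblasts went to the subset list with the highest score after each list's scores were standardized over fibroblasts, with the same margin on that scale, and those under it to no subset. Fibroblasts holding a UMI of 6 genes of other cell types (Cspg4, Pecam1, Cd52, Ptprc, Krt14, Epcam) were left out. No doublet caller was run. Counts were summed per library and population and tested in edgeR 4.0.16 (quasi-likelihood, TMM, filterByExpr, R 4.3.3) with hormone and PBDE terms, Benjamini-Hochberg adjusted over all genes tested, at a threshold of 0.05. Alternatives were DESeq2 1.42.0, its size factors, no filter on low counts, a mitochondrial limit of 10%, a gate margin of 1, no removal by the 6 genes, removal of cells above the 95th percentile of UMIs, the run suffix as a term, E2 without the P4 libraries and each library left out. In counts simulated for E2, with 200 genes changed by 1 (log2), 75.5% were recovered in Fib_0-like cells, 65% in Fib_3-like cells, 49.5% in macrophages and 62% in T cells. Every simulated gene had the same dispersion and no PBDE effect, and scarce genes were not among those changed. These rates therefore need not hold for the 7 genes. Intervals and floors cover counting error only. All 7 genes are named in the E2, P4 and PBDE comparisons. For the single-library comparisons values are given only where libraries were at least 2-fold apart. Of 30 other CC chemokine and receptor genes, those passing the E2, P4 or PBDE tests are named. Those passing in the test of Fib_0-like cells against the other subsets are named as well. The genes, lists and markers were chosen with earlier results of these data known, and E2 differences of Fib_1-like to Fib_3-like cells against the other subsets were added after values were seen.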

Additional observations from a re-analysis of the deposited data

Results flagged for a closer look

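The E2 difference of 4 ligands was unequal between fibroblast subsets by the edgeR interaction test of 1 subset against the mean of the other 3, which was met in 8 cases. All values are log2 differences of differences with SE and edgeR adjusted p. Fib_0-like cells stood above the mean of the other 3 for Ccl8 (1.09 ± 0.24, edgeR adjusted p = 0.00324), Ccl7 (0.92 ± 0.26, adjusted p = 0.0160) and Ccl19 (1.36 ± 0.41, adjusted p = 0.0275). Fib_3-like cells stood above the others for Ccl7 (1.30 ± 0.26, edgeR adjusted p = 0.00574) and Ccl2 (0.99 ± 0.28, adjusted p = 0.0459). Fib_2-like cells stood below for Ccl7 (-1.86 ± 0.25, edgeR adjusted p = 5.49e-06) and Ccl8 (-0.72 ± 0.25, adjusted p = 0.0359), and Fib_1-like cells below for Ccl8 (-0.96 ± 0.23, adjusted p = 0.0259). The same tests called 14.8%, 2.45%, 27.5% and 4.16% of all genes for Fib_0-like to Fib_3-like cells. The 4 contrasts share their libraries and each other's subsets, so they are not independent. The Ccl8 difference of Fib_0-like cells and the Ccl7 difference of Fib_2-like cells passed with each of the 9 libraries left out, the latter with an adjusted p of at most 0.000307. The Ccl7 difference of Fib_0-like cells was lost without VCD_Vehicle (edgeR adjusted p = 0.0928) or VCD_High_PBDE (0.0788), and that of Fib_3-like cells without VCD_Low_PBDE (0.0605). The other 4 were each lost without VCD_Vehicle and without VCD_Low_PBDE. Ccl19 in Fib_0-like cells was also lost without VCD_E2, VCD_E2_P4 or VCD_High_PBDE (edgeR adjusted p of up to 0.0984), and reached 0.135 without VCD_Low_PBDE. Ccl8 in Fib_1-like cells was also lost without VCD_E2, VCD_E2_P4, VCD_Low_E2 or VCD_Low_E2_P4 (edgeR adjusted p of up to 0.0832), and reached 0.203 without VCD_Low_PBDE. In Fib_2-like cells it was also lost without VCD_Low_E2, VCD_Low_E2_P4, VCD_High_PBDE or VCD_High_PBDE_E2_P4 (up to 0.0898), and reached 0.124 without VCD_Low_PBDE. Ccl2 in Fib_3-like cells held only without VCD_E2 or VCD_Low_E2_P4 (up to 0.251, without VCD_Low_PBDE). Under other settings, Ccl19 in Fib_0-like cells was lost at a mitochondrial limit of 10% (edgeR adjusted p = 0.0846) and without the cells of most UMIs (0.0723), and Ccl2 in Fib_3-like cells under the same settings (0.0576 and 0.139). Without the cells of most UMIs, Ccl7 in Fib_0-like (edgeR adjusted p = 0.0697) and Ccl8 in Fib_2-like cells (0.0631) were also lost, as was Ccl8 in Fib_1-like cells at a gate margin of 1 (0.0618). With 1 library a group, single libraries were not tested as outliers.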

How the results depend on the processing

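No paired analysis was possible because each labelled group has 1 library, so that no replicate numbers pair libraries. The E2 test has PBDE state as a covariate instead. The tests between subsets and between cell types of the same libraries have the library as a block in their main fit. Shares of all genes were computed for the main fit only, so counts of calls under the other settings have none beside them. The 6 E2 calls became 15 with no filter on low counts (all 6 shared), 3 with the run suffix as a term, 3 with E2 alone against no hormone, and 3 to 7 with a library left out, the 3 being without VCD_Low_PBDE. The 0 calls for P4 became 1 with DESeq2, 2 with no filter and 0 to 1 with a library left out (1 without VCD_High_PBDE). For low PBDE the count was 1 with no filter. For high PBDE it was 5 with DESeq2, 9 with no filter, 1 without the cells of most UMIs and 0 to 1 with a library left out (1 without VCD_E2 or VCD_Low_E2). The 3 ligands whose E2 difference in Fib_0-like cells differed from the mean of the other subsets became 1 without the cells of most UMIs. They became 1 to 4 with a library left out (1 without VCD_Vehicle or VCD_High_PBDE). The E2 increase of cells with a Ccl8 UMI in Fib_3-like cells was 21.8 percentage points at 5000 UMIs and 17.6 at 3000. Against macrophages per 100 fibroblasts, r was 0.024 in place of -0.09 for Ccl7, 0.54 in place of 0.40 for Ccl8 and 0.19 in place of 0.05 for Ccl2. The causes were not tested. Of 53 single values, 511 of 567 refits with a library left out kept direction and side of the threshold, 49 lost the call, 7 gained one and 0 reversed. Under the other settings 350 kept both, 22 lost, 13 gained and 0 reversed. These counts pool the E2, PBDE and interaction values with the tests between subsets and between cell types. Among the latter, only Ccl7 in Fib_1-like cells lost its call in any refit. The pooled counts therefore do not give the stability of the E2 results. The E2 calls of Ccl7 and Ccl2 in Fib_3-like cells were each lost in 12 of 18 settings. The Ccl8 call in Fib_0-like and the Ccl7 call in Fib_2-like cells passed in all 18 settings run for them. The Ccl7 call in Fib_0-like cells was lost with the run suffix (edgeR adjusted p = 0.0530) and with E2 alone (0.0990). Macrophage sums rest on 48 to 139 cells per library.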

Other observations

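Of 30 other CC chemokine and receptor genes, 9 to 15 were tested per population and few passed in edgeR. With E2, Ackr1, a decoy receptor that binds many chemokines, fell in Fib_0-like cells (-0.39 ± 0.07 log2, edgeR adjusted p = 0.0140), and Ccl12, a further CCR2 ligand, rose in Fib_2-like cells (4.80 ± 0.89, adjusted p = 0.00264) from few counts, 179 UMIs over the 12 libraries. With P4 added, Ackr1 rose in Fib_3-like cells (0.90 ± 0.12, edgeR adjusted p = 0.0200). Ccl5, a chemoattractant of T cells, rose in the macrophage sums (3.50 ± 0.41, edgeR adjusted p = 0.00113). Over the summed libraries Ccl5 was at 6185 CPM in T cells and 171 CPM in macrophages. The part of T cell RNA in this rise was not tested. None of the 30 genes passed under low or high PBDE. The test of Fib_0-like cells against the other 3 subsets called 71.7% of all genes. In it the decoy receptor genes Ackr1, Ackr2 and Ackr4 were higher by 2.22 ± 0.09, 2.87 ± 0.09 and 3.81 ± 0.25 (edgeR adjusted p = 2.56e-23, 1.03e-27 and 7.58e-17). Ccl12, Ccl25, Ccl27a and Ccrl2 were called lower (-2.45, -0.37, -0.14 and -0.28 log2). Ackr1 was also higher in Fib_3-like cells than in the other 3 subsets (1.15 ± 0.10, edgeR adjusted p = 5.06e-12).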
